A study of Mus musculus with 20 samples.

Results

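Complement and coagulation genes encode the plasma proteins of the blood cascades, which hepatocytes make and secrete. The 36 genes listed for these cascades were sought by their single gene symbol in the annotation of the array, and 34 of them were found, with 44 probe sets, among 17097 genes. Cpb2 and C3 were not analysed here. Total RNA of the liver was read on Affymetrix arrays, with 1 array for each of 20 mice aged 11 weeks in 4 groups of 5: restricted Ercc1Δ/- mice, Ercc1Δ/- mice on the control diet, restricted wild type mice and wild type mice on the control diet. All 4 groups were F1 hybrids of C57BL6J and FVB parents, bred and kept on AIN93G synthetic pellets, and the wild type mice were littermates. Ercc1 encodes a subunit of the nuclease that cuts damaged DNA in excision and crosslink repair, the Δ allele encodes a shortened protein, and the mutation is present in every cell of the body. The Ercc1Δ/- mice are called progeroid here. Food was reduced by 10% from 7 weeks and by 30% from 9 weeks of age, and was given just before the dark period. The time of day at which livers were taken is not given in the sources used here. The comparisons ask what the repair defect, the restriction and their combination change in the liver's output of cascade transcripts.

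Coagulation ends in thrombin, which cuts fibrinogen into fibrin. It is started by tissue factor with factor VII, amplified by the contact factors and factors XI, IX and X, held in check by antithrombin and the protein C system, and undone by plasmin. Complement tags targets through the classical, lectin and alternative pathways, which meet at C3. The terminal components C5, C6, C7, C8 and C9 then assemble the membrane attack complex, a pore in the target membrane. In mice the serum levels of terminal components are known to be higher in males than in females of several strains.

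All values are levels on the log2 scale after RMA, which corrects and normalises probe signals and gives 1 value per probe set. Levels of different genes cannot be compared, and a gene was represented by its probe set with the highest mean. Rises and falls are those with a limma adjusted p under 0.05 over all 17097 genes, and errors are SD for levels and SE for differences, with n = 5 per group. Ercc1 itself lay between 4.49 and 5.08 in restricted progeroid mice and between 5.14 and 5.55 in progeroid controls, against 6.04 to 6.36 in restricted wild type mice and 6.44 to 6.62 in wild type controls. The genotypes did not overlap, and on each diet a second probe set of Ercc1 also kept them apart. Its remaining probe sets overlapped between genotypes on both diets. Among controls they differed by 0.02 and -0.03, progeroid minus wild type (limma adjusted p = 0.914 and 0.862 over all probe sets). Which exons each probe set reads was not determined. Sex is not labelled. The Y chromosome gene Eif2s3y had levels of 9.57 to 10.19 and Xist of 3.82 to 4.50 over the 20 arrays. Each array thus had the pattern of a male. Of 14 hepatocyte markers measured, 13 had group means over 5 in all groups, with Alb at 14.27 to 14.39 and Pck1 at 3.10 to 3.76.

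Restriction lowered 4 genes of the membrane attack complex more than any other member in each genotype, and lowered them less in progeroid mice. These were C6, C8a, C8b and C9, whose proteins share the pore-forming domain of the complex. In restricted wild type livers C6 was 15.0-fold lower than in wild type controls, C8a 7.33-fold, C8b 5.93-fold and C9 4.04-fold. In progeroid livers the falls were 3.83-fold, 3.01-fold, 2.93-fold and 1.90-fold in the same order. In whole liver, fewer cells of a type and less RNA per cell cannot be told apart.

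C6, which joins the C5b fragment first and is encoded at chr15:4727067-4804045 (GRCm38.p6 in RefSeq, as for all positions here), was at 8.47, 9.24, 8.96, 10.01 and 8.75 in restricted progeroid mice. In progeroid controls it was at 10.36, 11.34, 11.26, 11.43 and 10.73. Its levels were 6.39, 7.20, 6.86, 6.98 and 5.84 in restricted wild type mice and 10.57, 10.53, 10.63, 10.40 and 10.70 in wild type controls. Restricted animals lay below every control of their genotype, and every restricted progeroid mouse lay above every restricted wild type mouse. The change with restriction was -1.94 ± 0.26 in progeroid mice (limma adjusted p = 9.05e-05) and -3.91 ± 0.26 in wild type mice (adjusted p = 5.18e-09). The difference of these changes, progeroid minus wild type, was 1.97 ± 0.37 (adjusted p = 0.0135). It stayed under the threshold in all 20 fits that each left out 1 animal, with adjusted p up to 0.0279. Its SD was 0.59 in restricted progeroid and 0.54 in restricted wild type mice, against 0.11 in wild type controls.

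C8a and C8b encode the α and β chains of C8, which anchors the complex in the membrane. They are neighbours on chromosome 4, C8a at chr4:104815679-104876487 and C8b at chr4:104766317-104804548. C8a was at 9.85, 10.76, 10.94, 11.55 and 11.13 in restricted progeroid mice and at 12.10, 12.51, 12.56, 12.62 and 12.37 in progeroid controls. It was at 9.42, 10.05, 9.73, 9.59 and 9.28 in restricted wild type mice and at 12.41, 12.62, 12.52, 12.48 and 12.41 in wild type controls. Restricted mice were below all controls in both genotypes, but 1 restricted progeroid mouse, animal 362 at 9.85, lay within the range of restricted wild type mice. C8a changed by -1.59 ± 0.21 in progeroid (adjusted p = 6.60e-05) and by -2.87 ± 0.21 in wild type mice (limma adjusted p = 1.17e-08).

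C8b was at 9.38, 10.08, 9.85, 10.65 and 10.22 in restricted progeroid mice, against 11.18, 11.80, 11.81, 11.70 and 11.45 in progeroid controls. In restricted wild type mice it was at 8.69, 9.00, 9.07, 9.03 and 8.47, against 11.42, 11.62, 11.51, 11.21 and 11.34 in wild type controls. No pair of groups that differ by diet overlapped, and the restricted genotypes did not overlap either. C8b changed by -1.55 ± 0.18 in progeroid (adjusted p = 1.45e-05) and by -2.57 ± 0.18 in wild type mice (limma adjusted p = 6.81e-09). The difference between genotypes in the response to restriction was 1.29 ± 0.30 for C8a (adjusted p = 0.0339) and 1.02 ± 0.25 for C8b (adjusted p = 0.0496). Of the 20 fits that left out 1 animal, C8a missed the threshold in 13, with limma adjusted p up to 0.0698: those without progeroid animal 321, 327, 365, 366, 368 or 369 or wild type animal 401, 402, 403, 404, 423, 424 or 425. C8b missed it in 19 of them, with adjusted p up to 0.0960, and passed without restricted progeroid animal 362 (adjusted p = 0.00947).

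C9, which polymerises to line the pore and is encoded at chr15:6445346-6498825, was at 11.84, 12.55, 12.54, 12.98 and 12.68 in restricted progeroid mice and at 13.35, 13.52, 13.45, 13.45 and 13.45 in progeroid controls. It was at 11.52, 11.44, 11.26, 11.15 and 11.16 in restricted wild type mice and at 13.36, 13.40, 13.35, 13.34 and 13.14 in wild type controls. The 4 groups kept apart in every comparison of restricted with control animals, and restricted progeroid mice lay above all restricted wild type mice. Its change was -0.92 ± 0.14 in progeroid mice (adjusted p = 0.000184) and -2.01 ± 0.14 in wild type mice (limma adjusted p = 5.18e-09). The difference of 1.09 ± 0.19 passed (adjusted p = 0.00781) and also passed in all 20 fits without 1 animal, with adjusted p up to 0.0204.

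The other terminal members, C8g and Hc, moved less, and C7 was not measured. C8g encodes the γ chain of C8, a lipocalin that is not part of the pore family, at chr2:25498650-25501777. It was 12.48 ± 0.14 in restricted progeroid mice and 12.65 ± 0.04 in progeroid controls, a difference of -0.17 ± 0.06 that did not pass the test (adjusted p = 0.0867), and fell by 0.26 ± 0.06 in wild type mice (adjusted p = 0.00492). Hc encodes C5, the precursor of C5b, and FVB mice are known to carry a deficient allele of it, so each F1 animal had 1 such parent strain. Hc fell by 0.36 ± 0.07 in progeroid mice (adjusted p = 0.00236) and by 0.23 ± 0.07 in wild type mice (limma adjusted p = 0.0249). The wild type fall of Hc missed the threshold without animal 402, 424 or 425 (adjusted p up to 0.0760).

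**Figure D1:**
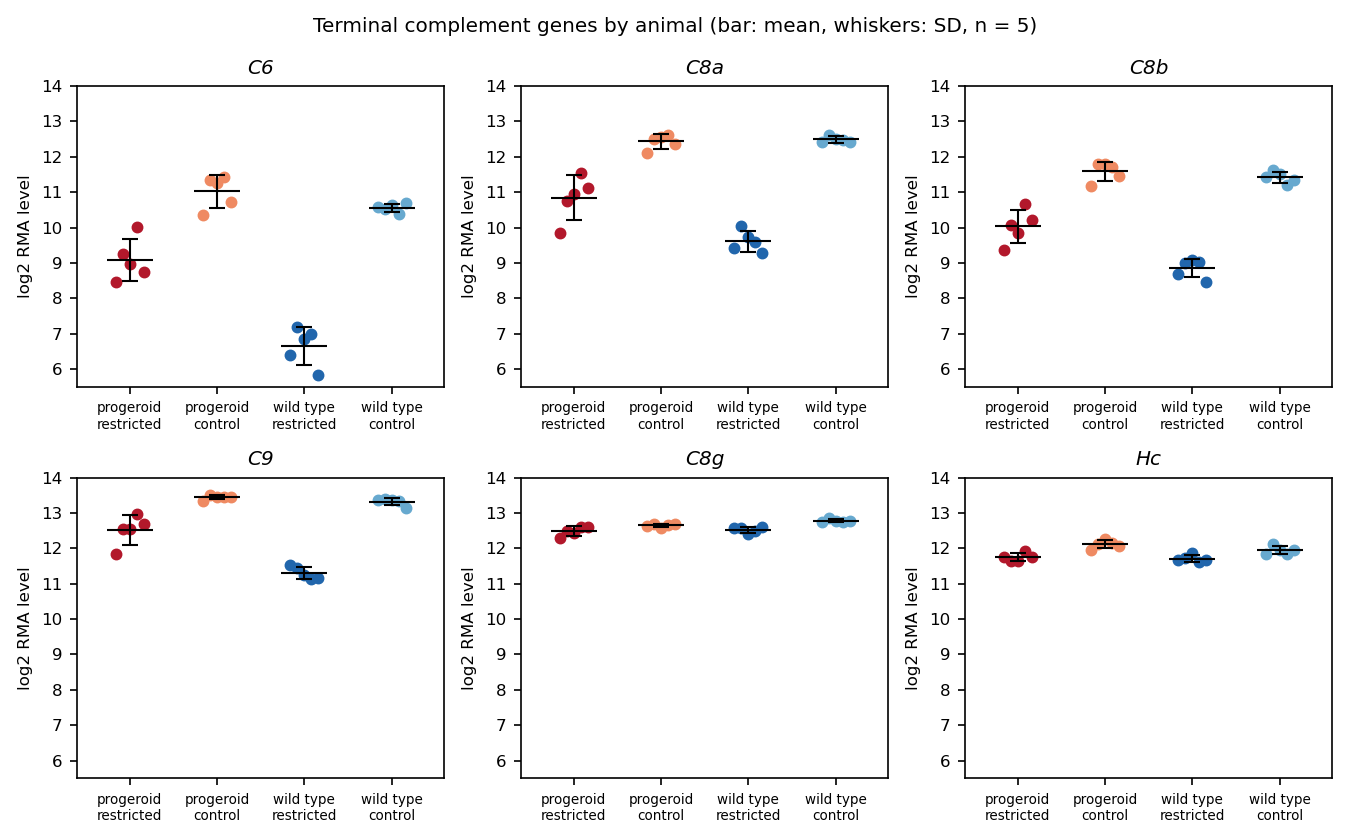
Log2 RMA level of the 6 terminal complement members in each animal, on 1 shared y axis, with the groups progeroid restricted, progeroid control, wild type restricted and wild type control from left to right (points: animals; bar: mean; whiskers: SD, n = 5). C6, C8a, C8b and C9 lie lowest in restricted wild type mice and between those and the controls in restricted progeroid mice, while C8g and Hc stay within 11.71 and 12.78 on average.

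The promoters of the 4 genes are shown because their transcripts moved together, with that of Fga, the fibrinogen α chain gene, as a member whose level did not pass any test. Each sequence runs 5′ to 3′ from 250 bases before to 50 after the start in RefSeq's promoter table (GRCm38.p6), and capitals mark matches to any of 5 short motifs searched on both strands. For C6 that start, position 4727210, lies 143 bases inside the 5′ end of the gene given above, and for C8a, at 104876398, it lies 89 bases inside; for the others the ends coincide. The motifs were GTTAATNAT (core of the HNF1 site), CAAAGTCCA (HNF4), TTGCGCAA and TTGCNNCAA (C/EBP, neither containing the other) and TTCNNNGAA (STAT).
C6 promoter (chr15:4726960-4727259, plus strand): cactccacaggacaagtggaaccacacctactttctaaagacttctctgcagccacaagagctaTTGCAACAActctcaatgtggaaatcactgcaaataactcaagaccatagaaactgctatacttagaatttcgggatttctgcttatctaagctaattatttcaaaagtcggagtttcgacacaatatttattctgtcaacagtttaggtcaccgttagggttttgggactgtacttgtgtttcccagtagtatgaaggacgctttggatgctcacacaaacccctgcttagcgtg
C8a promoter (chr4:104876349-104876648, minus strand): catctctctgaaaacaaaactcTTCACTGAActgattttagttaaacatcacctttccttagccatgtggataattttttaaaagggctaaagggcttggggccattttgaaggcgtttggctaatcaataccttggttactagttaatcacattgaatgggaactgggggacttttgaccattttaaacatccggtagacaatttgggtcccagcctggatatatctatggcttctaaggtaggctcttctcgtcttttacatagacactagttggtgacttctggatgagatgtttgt
C8b promoter (chr4:104766067-104766366, plus strand): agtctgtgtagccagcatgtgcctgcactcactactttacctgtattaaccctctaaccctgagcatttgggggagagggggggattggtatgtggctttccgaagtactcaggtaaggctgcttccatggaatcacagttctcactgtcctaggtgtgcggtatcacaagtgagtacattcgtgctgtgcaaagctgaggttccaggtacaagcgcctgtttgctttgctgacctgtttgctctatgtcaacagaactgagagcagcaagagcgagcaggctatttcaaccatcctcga
C9 promoter (chr15:6445096-6445395, plus strand): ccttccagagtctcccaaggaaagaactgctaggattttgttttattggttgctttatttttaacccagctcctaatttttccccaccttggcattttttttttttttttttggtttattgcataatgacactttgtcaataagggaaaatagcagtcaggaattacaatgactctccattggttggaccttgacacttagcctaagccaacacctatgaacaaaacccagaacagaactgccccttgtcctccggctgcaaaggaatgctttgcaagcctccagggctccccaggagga
Fga promoter (chr3:83025903-83026202, plus strand): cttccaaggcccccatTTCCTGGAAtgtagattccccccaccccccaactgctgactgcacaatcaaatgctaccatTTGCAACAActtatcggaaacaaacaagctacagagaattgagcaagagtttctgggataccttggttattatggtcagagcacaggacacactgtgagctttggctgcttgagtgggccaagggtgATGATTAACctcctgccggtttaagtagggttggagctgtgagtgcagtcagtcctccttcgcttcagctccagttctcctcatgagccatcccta

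No motif was shared by the 4 promoters in this window. C6 held a TTGCNNCAA match from -186 to -178 relative to this start, C8a a TTCNNNGAA match from -228 to -220, and those of C8b and C9 held none of the 5. The Fga promoter held TTCNNNGAA, TTGCNNCAA and GTTAATNAT. Promoters were found for 29 members; GTTAATNAT occurred in 4 of them (C4bp, F13b, Fga and Hc) and in 0.836% of 27025 promoters, TTCNNNGAA in 7 and in 8.47%, and TTGCNNCAA in 2 and in 2.12%. CAAAGTCCA occurred in 0 of the 29 and in 0.477% of all, and TTGCGCAA in 0 and in 0.185%. These are matches of letters and not sites shown to be bound.

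Over the whole set, restriction raised 1 and lowered 10 of the 34 members in progeroid mice, where 6.94% of all genes rose and 5.07% fell. The count of 11 ranged from 7 to 11 when 1 animal was left out, and was 7 without progeroid control animal 323 or restricted animal 362. In wild type mice it raised 2 and lowered 13, where 9.92% of genes rose and 12.6% fell, and the total of 15 ranged from 14 to 16. In progeroid mice 1 member (Kng1) lay higher and 7 lower in restricted animals without overlap, 8 in all, against 5.19%, 3.78% and 8.97% of all genes. In wild type mice 3 (F7, Serpinc1 and Kng1) lay higher and 12 lower without overlap, 15 in all, against 6.90%, 8.77% and 15.7%. The median change was -0.11 over the members and -0.01 over all genes in progeroid mice, and -0.12 and -0.03 in wild type mice. Of the 14 complement members 9 fell in progeroid and 10 in wild type mice. Of the 20 members of coagulation and fibrinolysis 1 fell and 1 rose in progeroid mice, while 3 fell and 2 rose in wild type mice. The difference between the diet effects passed the test for 4 members, all of them terminal complement genes and all higher in the progeroid response, against 1.03% of genes higher and 0.374% lower. That count was 2 to 4 when 1 animal was left out, being 2 without any of the 13 animals named for C8a, and 2 with an intensity trend in the fit.

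The mean levels of some marker lists also differed with restriction. In progeroid mice the mean over 4 erythroid markers was 5.78 to 6.37 in restricted animals and 6.38 to 6.92 in controls, and that over 8 lymphocyte markers 3.74 to 3.90 and 3.92 to 4.07 (each exact permutation p = 0.00794, the smallest possible, and 0.0454 adjusted over 40 comparisons). The mean over 14 hepatocyte markers differed by -0.07 (exact p = 0.0397, adjusted 0.144). In wild type mice the Kupffer cell and macrophage mean differed by -0.30 (exact p = 0.0476, adjusted 0.147) and the lymphocyte mean by -0.12 (exact p = 0.0159, adjusted 0.0794). Of the 8 lymphocyte markers 0 had a group mean over 5, and 1 fell and 0 rose in each genotype. Of the 4 erythroid markers 2 had group means over 5, and 1 fell and 0 rose in each genotype. Of 12 Kupffer cell and macrophage markers 3 fell and 0 rose in wild type mice. Of all genes 5.07% fell in progeroid and 12.6% in wild type mice. The part of these markers in the changes of the members was not tested.

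**Figure D2:**
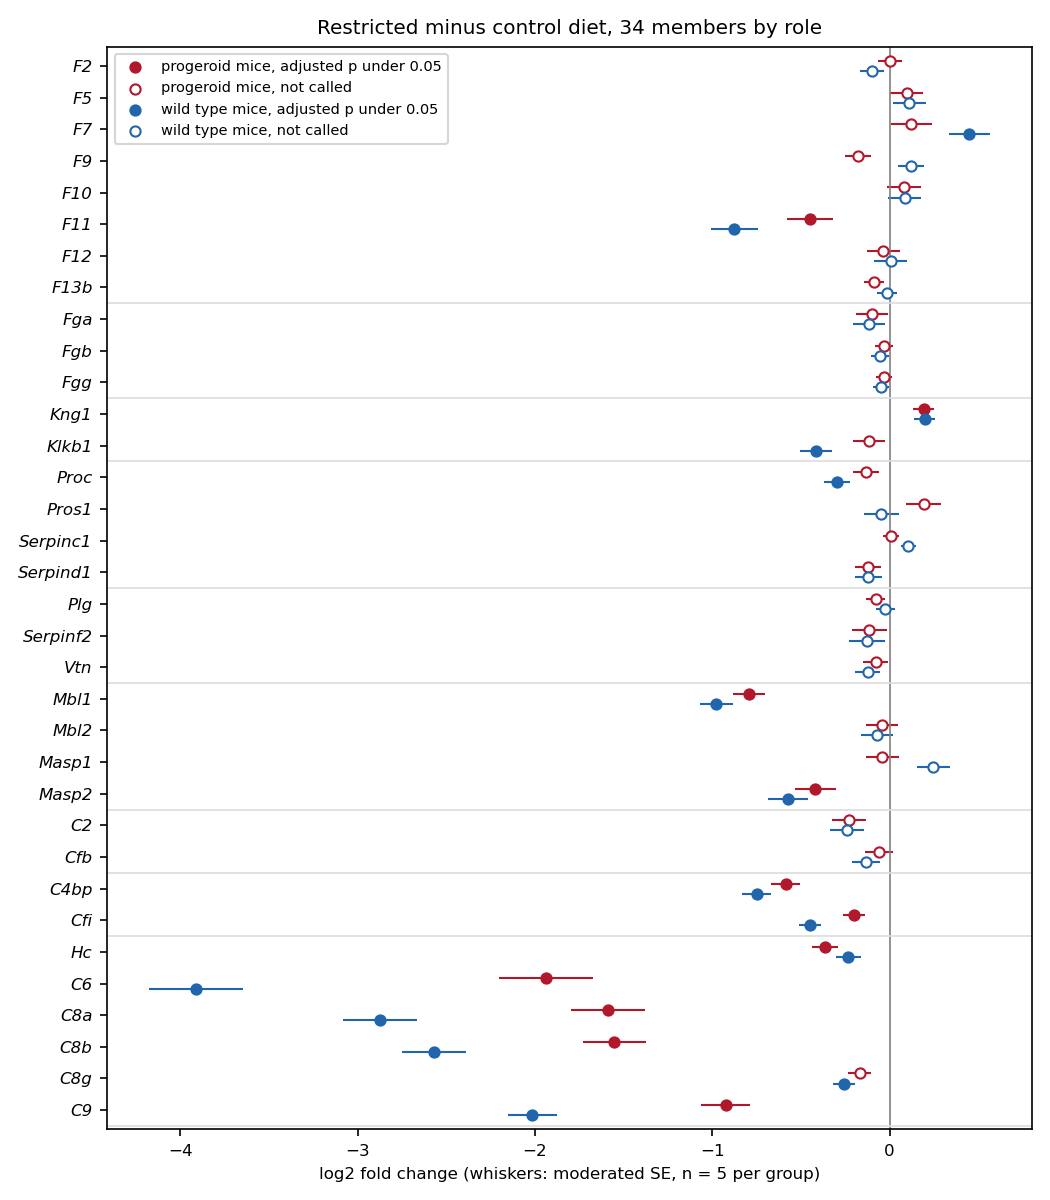
Log2 fold change with restriction (restricted minus control) of the 34 members, grouped by role from coagulation factors at the top to terminal complement at the bottom, in progeroid mice (red) and wild type mice (blue); whiskers are moderated SE, n = 5 per group, and filled points have adjusted p under 0.05. C6, C8a, C8b and C9 lie between -3.91 and -0.92, and all other members between -0.98 and 0.45.

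A lectin and 2 complement regulators also fell with restriction. Mbl1, mannose-binding lectin A, which binds microbial sugars, was 10.67 ± 0.18 in restricted progeroid mice and 11.46 ± 0.11 in progeroid controls. In restricted wild type mice it was 10.65 ± 0.19, against 11.63 ± 0.08 in wild type controls. It fell 1.73-fold in progeroid (adjusted p = 1.45e-05) and 1.97-fold in wild type mice (limma adjusted p = 2.89e-07), with no overlap between diets in either genotype. The difference between the genotypes was 0.18 ± 0.13 (adjusted p = 0.561). C4bp, the binding protein that limits the C4b-containing convertase, fell 1.50-fold in progeroid mice (11.62 ± 0.18 on restriction and 12.20 ± 0.10 on the control diet) and 1.68-fold in wild type mice (11.26 ± 0.12 and 12.01 ± 0.09). Here too the diets did not overlap. Cfi, the protease that inactivates C3b and C4b, fell 1.36-fold in wild type mice (-0.45 ± 0.06; adjusted p = 3.36e-05). In progeroid mice its change was -0.20 ± 0.06 (limma adjusted p = 0.0436), a call lost in 11 of the 20 fits without 1 animal and with each array centred on its median.

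The other lectin, Mbl2 or mannose-binding lectin C, did not follow Mbl1. It was at 12.68, 13.02, 13.10, 13.14 and 13.08 in restricted progeroid mice and at 12.87, 13.12, 13.03, 13.04 and 13.17 in progeroid controls. In restricted wild type mice it was at 12.75, 12.56, 12.34, 12.53 and 12.71 and in wild type controls at 12.65, 12.66, 12.73, 12.63 and 12.57. The progeroid controls lay above all wild type controls, and 4 of the 5 restricted progeroid mice lay above all restricted wild type mice. Mbl2 was higher in progeroid mice by 0.43 ± 0.09 on restriction (adjusted p = 0.00184) and by 0.40 ± 0.09 on the control diet (limma adjusted p = 0.00491). Its change with diet was -0.04 ± 0.09 in progeroid and -0.07 ± 0.09 in wild type mice, and neither passed the test.

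The serine proteases that travel with these lectins differed from each other. Masp2, which cuts C4 and C2, was represented by a probe set that fell by 0.42 ± 0.11 in progeroid mice (adjusted p = 0.0199) and by 0.57 ± 0.11 in wild type mice (limma adjusted p = 0.000988). The progeroid call was lost without animal 323, 326, 362 or 369 (adjusted p up to 0.0653). A second probe set of Masp2 ran the other way: tested over all probe sets, it rose with restriction in wild type mice by 0.38 ± 0.08 (adjusted p = 0.00188) and was higher in progeroid than wild type controls by 0.37 ± 0.08 (limma adjusted p = 0.00590). Of all probe sets, 19.0% passed in the first of these comparisons and 6.94% in the second. The gene is known to give a full-length transcript and a short one for MAp19, and which probe set reads which was not determined. With the mean of both probe sets Masp2 passed neither diet test. Masp1, by the brightest of its 5 probe sets, changed by -0.04 ± 0.09 in progeroid (adjusted p = 0.830) and 0.25 ± 0.09 in wild type mice (adjusted p = 0.0623). The wild type change passed with the filter on dim genes, with the intensity trend, and without animal 325, 402 or 425 (limma adjusted p down to 0.0445). Other probe sets of Masp1 differed in sign. A second was 9.35 ± 0.16 in restricted progeroid mice and 9.25 ± 0.22 in progeroid controls. The dimmest was 3.40 ± 0.10 in restricted wild type mice and 3.46 ± 0.22 in wild type controls.

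C2, the protease subunit of the classical and lectin convertases, was higher in progeroid livers on either diet. It was at 9.32, 9.49, 9.53, 9.75 and 9.42 in restricted progeroid mice, against 9.26, 9.03, 9.21, 8.98 and 9.07 in restricted wild type mice. With control food it was at 9.43, 9.75, 9.97, 9.81 and 9.69 in progeroid and at 9.36, 9.52, 9.25, 9.18 and 9.43 in wild type mice. The restricted groups did not overlap, whereas progeroid control animal 321 lay within the wild type control range. The difference was 0.39 ± 0.10 on restriction (adjusted p = 0.00703) and 0.38 ± 0.10 on the control diet (limma adjusted p = 0.0129). Macrophages also make C2. The mean over 12 Kupffer cell and macrophage markers was 7.92 to 8.71 in restricted progeroid and 7.19 to 7.77 in restricted wild type mice. Of these markers 9 were higher and 0 lower, beside 11.8% and 5.44% of all genes. On the control diet that mean was 7.79 to 8.44 in progeroid and 7.63 to 8.08 in wild type mice. There 2 markers were higher and 0 lower, beside 6.70% and 4.32% of all genes. Their part in the difference of C2 was not tested. Cfb, the alternative pathway protease, passed the test in none of the 5 comparisons, with differences from -0.13 to 0.07.

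**Figure D3:**
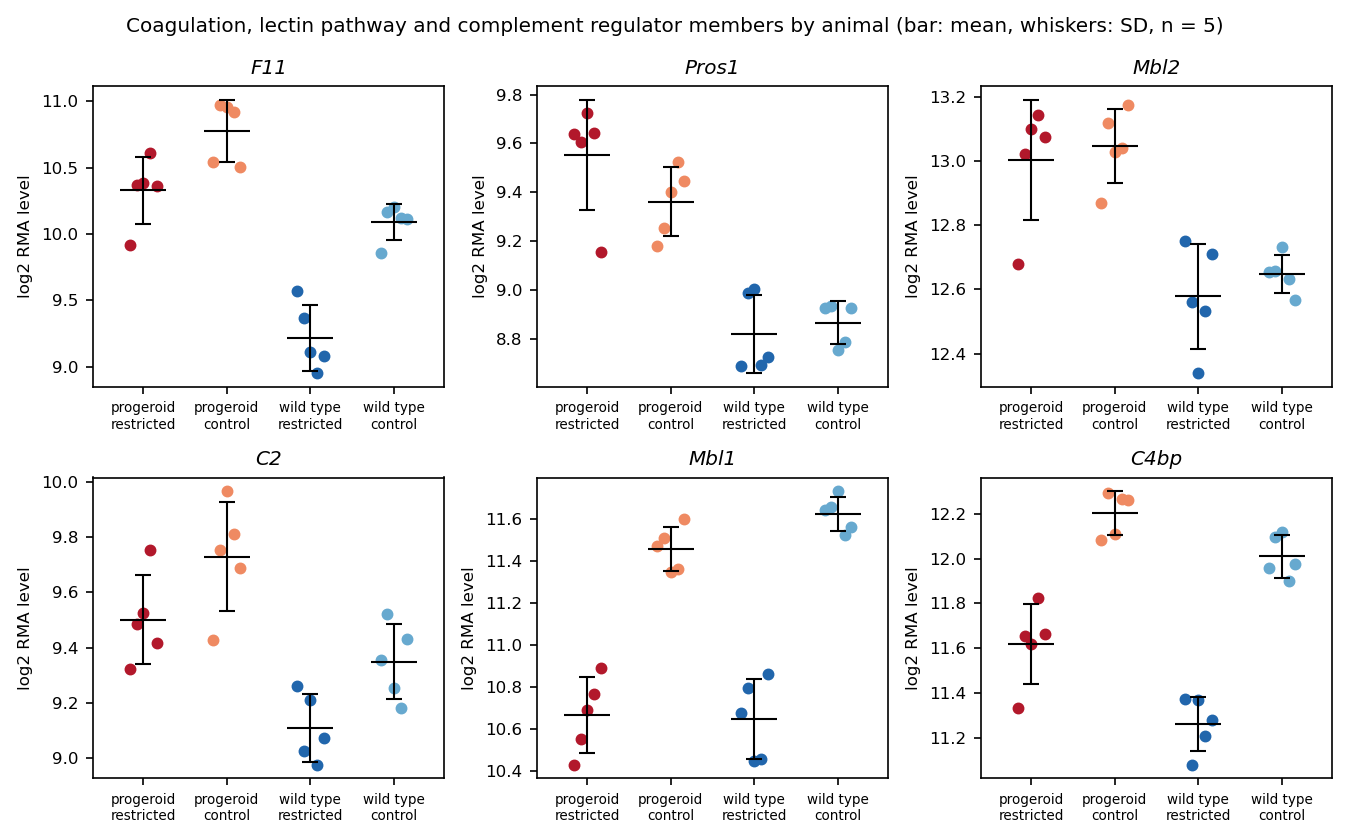
Log2 RMA level in each animal of F11, Pros1, Mbl2, C2, Mbl1 and C4bp, each on its own y axis, with the groups progeroid restricted, progeroid control, wild type restricted and wild type control from left to right (points: animals; bar: mean; whiskers: SD, n = 5). F11 and Pros1 lie higher in progeroid than in wild type mice, and Mbl1 and C4bp lie lower in restricted than in control mice.

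Among coagulation genes, F11 and Pros1 differed most between the genotypes. F11, the zymogen that activates factor IX, was at 9.92, 10.37, 10.39, 10.61 and 10.36 in restricted progeroid mice and at 10.54, 10.97, 10.95, 10.92 and 10.50 in progeroid controls. Its levels were 9.57, 9.37, 9.11, 8.95 and 9.08 in restricted wild type mice and 9.86, 10.16, 10.20, 10.12 and 10.12 in wild type controls. On each diet every progeroid animal lay above every wild type animal. F11 was 2.16-fold higher in progeroid mice on restriction (1.11 ± 0.13; adjusted p = 8.03e-06) and 1.61-fold higher on the control diet (0.69 ± 0.13; limma adjusted p = 0.00144). Restriction lowered it 1.83-fold in wild type mice (adjusted p = 6.66e-05). In progeroid mice its change was -0.45 ± 0.13 (adjusted p = 0.0303), a call lost without animal 323, 325, 326, 362, 365 or 369 (limma adjusted p up to 0.0885). The difference of the diet effects was 0.43 ± 0.19 and did not pass (adjusted p = 0.294).

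Pros1 encodes protein S, the cofactor of activated protein C. It was at 9.64, 9.61, 9.72, 9.64 and 9.16 in restricted progeroid mice and at 8.69, 8.99, 9.00, 8.69 and 8.72 in restricted wild type mice. On the control diet it was at 9.18, 9.25, 9.40, 9.53 and 9.45 in progeroid and at 8.92, 8.93, 8.75, 8.78 and 8.93 in wild type mice. The genotypes did not overlap on either diet, although restricted progeroid animal 369 stood well below the other 4 of its group. Pros1 was 1.66-fold higher on restriction (0.73 ± 0.10; adjusted p = 3.51e-05) and 1.41-fold higher on the control diet (0.50 ± 0.10; limma adjusted p = 0.00218). With restriction it changed by 0.19 ± 0.10 in progeroid (adjusted p = 0.237; 0.0349 without animal 369) and by -0.05 ± 0.10 in wild type mice (adjusted p = 0.798). Endothelial cells also make protein S. The mean over 9 sinusoidal endothelial markers was 7.65 to 8.11 in restricted progeroid and 7.55 to 8.11 in restricted wild type mice. On the control diet that mean was 7.78 to 8.04 in progeroid and 7.90 to 7.99 in wild type mice. The part of these markers in the difference of Pros1 was not tested.

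Other initiators and contact proteins changed less. F7, which starts the extrinsic pathway with tissue factor, rose 1.37-fold in restricted wild type mice (10.42 ± 0.22 against 9.97 ± 0.10 in wild type controls; adjusted p = 0.00765), with no overlap. In progeroid mice it changed by 0.12 ± 0.12 (limma adjusted p = 0.559), and the difference of -0.33 ± 0.16 did not pass (adjusted p = 0.380). Klkb1, plasma prekallikrein, lies beside F11 on chromosome 8 (chr8:45266688-45294835; F11 at chr8:45240659-45262055). It fell 1.33-fold in wild type mice (adjusted p = 0.00234) and changed by -0.11 ± 0.09 in progeroid mice (limma adjusted p = 0.480). Proc, the zymogen of the anticoagulant protein C, fell 1.23-fold in wild type mice (adjusted p = 0.00684) and changed by -0.13 ± 0.07 in progeroid mice (adjusted p = 0.284).

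Kng1, the precursor of bradykinin, was the member that rose with restriction in both genotypes. The rise was 0.19 ± 0.06 in progeroid (adjusted p = 0.0324) and 0.20 ± 0.06 in wild type mice (limma adjusted p = 0.0163). It rests on 1 of 2 probe sets: the other changed by -0.02 ± 0.08 and 0.09 ± 0.08, and with the mean of both neither call held. The progeroid rise was also lost without animal 321, 323, 362, 368 or 369 (adjusted p up to 0.0915), and the wild type rise without animal 404 (adjusted p = 0.0536). Its higher level in restricted progeroid than restricted wild type mice, 0.17 ± 0.06 (limma adjusted p = 0.0441), was lost in 12 of 20 fits without 1 animal. That call was also lost with the mean of both probe sets and with only the compared groups in the fit. The other probe set lay the opposite way, at 12.40 ± 0.08 in restricted progeroid and 12.58 ± 0.08 in restricted wild type mice. F13b, the carrier subunit of the factor that crosslinks fibrin, was higher in progeroid controls than in wild type controls by 0.18 ± 0.06 (limma adjusted p = 0.0428), a call lost in 11 of those 20 fits, with adjusted p up to 0.117, and after centring each array.

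The fibrinogen chains Fga, Fgb and Fgg, from which clots are made, passed no test. Fgg averaged 13.78 ± 0.01 in restricted progeroid mice and 13.81 ± 0.04 in progeroid controls, against 13.74 ± 0.02 in restricted wild type mice and 13.78 ± 0.07 in wild type controls. Its difference between progeroid and wild type controls was 0.02 ± 0.05, with a 95% interval of -0.07 to 0.12, and its change with restriction in wild type mice had an interval of -0.14 to 0.05. For Fga, the least even of the 3, these intervals were -0.16 to 0.22 and -0.31 to 0.07. F2, prothrombin, had intervals of -0.19 to 0.09 and -0.24 to 0.04 for the same 2 differences. Plg, which gives plasmin, had -0.08 to 0.14 and -0.14 to 0.09. Serpinc1, antithrombin, differed by 0.11 ± 0.04 between restricted and control wild type mice (adjusted p = 0.0965), a gap without overlap that passed, among the alternatives run, with an intensity trend in the fit. Several of these genes sit near the top of the scale, where array signals can understate differences.

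The same held for F5, F9, F10 and F12, for Serpind1 (heparin cofactor II), Serpinf2 (α2-antiplasmin) and Vtn (vitronectin), which passed no test with the probe sets that represent them. Their pairwise differences lay between -0.18 and 0.23. F10, which forms the prothrombin-cleaving enzyme with F5, had 2 dimmer probe sets that rose with restriction in wild type mice when tested over all probe sets, by 0.62 ± 0.10 (adjusted p = 0.000126) and 0.60 ± 0.09 (limma adjusted p = 7.67e-05). The brighter one differed by 0.09 ± 0.09. Among controls the 2 dimmer probe sets averaged higher in progeroid than wild type mice, at 8.59 ± 0.07 against 8.42 ± 0.16 and 9.02 ± 0.11 against 8.85 ± 0.17. The brighter one averaged lower there, at 11.66 ± 0.21 against 11.77 ± 0.16. A second probe set of Vtn fell in wild type mice (-0.34 ± 0.11; adjusted p = 0.0386), where the first differed by -0.12 ± 0.07. F9 missed the threshold for the genotype difference on the control diet (0.21 ± 0.07; adjusted p = 0.0645).

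Compared with wild type mice, 11 of the 34 members were higher and 0 lower in progeroid livers on restriction, where 11.8% of all genes were higher and 5.44% lower. At an unadjusted p under 0.05, 12 members were higher and 3 lower. On the control diet 5 were higher and 0 lower, against 6.70% and 4.32% of all genes. There 10 were higher and 2 lower at an unadjusted p under 0.05. The share of all genes at that unadjusted threshold was not counted on either diet, so the unadjusted counts have no background beside them. F11, Pros1, C2 and Mbl2 were higher on both diets. On restriction C6 was 5.40-fold higher in progeroid mice (2.43 ± 0.26; adjusted p = 2.96e-06), C8a 2.34-fold, C8b 2.27-fold and C9 2.32-fold higher (limma adjusted p at most 0.000349). On the control diet none of these 4 passed: C6 differed by 0.46 ± 0.26, C8a by -0.06 ± 0.21, C8b by 0.17 ± 0.18 and C9 by 0.12 ± 0.14. C4bp was higher by 0.36 ± 0.08 (adjusted p = 0.00440) and Cfi by 0.33 ± 0.06 (limma adjusted p = 0.000834) on restriction. The median difference over the members was 0.06 on restriction and 0.07 on the control diet, and 0.00 and -0.01 over all genes. On restriction 8 members lay higher and 1 (Serpinc1) lower in progeroid mice without overlap, 9 in all, against 7.95%, 3.94% and 11.9% of all genes. Among controls 4 (F11, F13b, Pros1 and Mbl2) lay higher and 1 (C8g) lower without overlap, 5 in all, against 5.40%, 3.95% and 9.35%. The mean over 14 hepatocyte markers was 12.54 to 12.58 in restricted progeroid and 12.59 to 12.67 in restricted wild type mice (exact permutation p = 0.00794, adjusted 0.0454). Of these 14 markers 0 were higher and 1 lower in progeroid mice, beside 11.8% and 5.44% of all genes. On the control diet the 3′ minus 5′ difference of the Gapdh control probe sets, a measure of RNA integrity, averaged 0.93 in progeroid and 0.66 in wild type mice (exact permutation p = 0.0476, 0.147 adjusted over 40 comparisons of markers). The mean over 8 neutrophil and monocyte markers averaged 4.37 in progeroid controls and 3.97 in wild type controls, and that over 11 stellate cell and fibrosis markers 6.78 and 6.49 (each exact permutation p = 0.00794, adjusted 0.0454). On restriction the neutrophil and monocyte mean was 4.27 in progeroid and 3.96 in wild type mice (exact p = 0.00794, adjusted 0.0454), and the stellate mean 6.71 and 6.43 (exact p = 0.0317, adjusted 0.127). Of the 8 neutrophil and monocyte markers, at most 1 (S100a9) had a mean over 5 in any group. On each diet 2 of the 8 were higher in progeroid mice and 0 lower. Of the 11 stellate cell and fibrosis markers, 3 were higher and 0 lower on each diet. These counts stand beside 6.70% of all genes higher on the control diet and 11.8% on restriction. The part of these markers and of RNA integrity in the genotype differences was not tested.

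**Figure D4:**
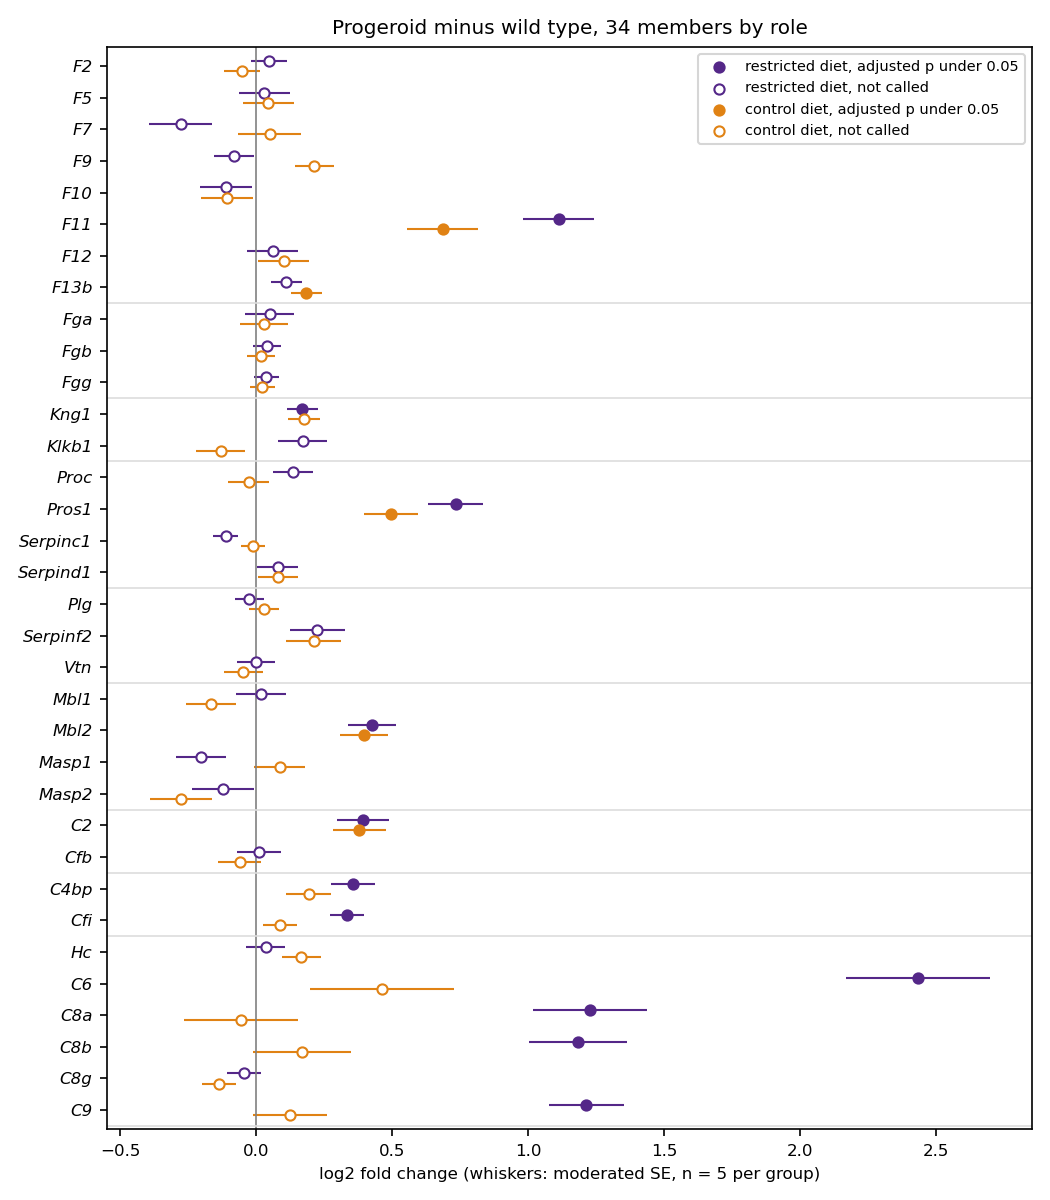
Log2 fold change between genotypes (progeroid minus wild type) of the 34 members, grouped by role from coagulation factors at the top to terminal complement at the bottom, on the restricted diet (purple) and the control diet (orange); whiskers are moderated SE, n = 5 per group, and filled points have adjusted p under 0.05. C6, C8a, C8b and C9 lie between 1.18 and 2.43 on restriction and between -0.06 and 0.46 on the control diet.

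Other genes of the cascades were counted from lists of plasma proteins, of receptors and surface regulators, and of the vitamin K cycle. Of 23 further plasma proteins 0 rose and 4 fell with restriction in progeroid mice, beside 6.94% and 5.07% of all genes. In wild type mice 0 rose and 10 fell, beside 9.92% and 12.6%. Serpina10, the inhibitor of factor Xa that works with protein Z, fell by 0.45 ± 0.10 in progeroid and by 0.48 ± 0.10 in wild type mice. C4b, which supplies the other subunit of the convertase that contains C2, changed by -0.47 ± 0.11 in progeroid and -0.39 ± 0.11 in wild type mice. Mug1, a broad protease inhibitor, changed by -0.34 ± 0.09 in progeroid and -0.77 ± 0.09 in wild type mice (limma adjusted p = 2.51e-06), and Clu, an inhibitor of terminal complex assembly, fell in wild type mice (-0.48 ± 0.10). Between genotypes 4 of the 23 were higher and 1 lower in progeroid mice on restriction (all genes: 11.8% and 5.44%), including Proz, protein Z (0.34 ± 0.07), and Cfp, properdin, which leukocytes make (0.71 ± 0.14). On the control diet 2 were higher and 1 lower (all genes: 6.70% and 4.32%), the last being F8, the cofactor of factor IX (-0.40 ± 0.12; limma adjusted p = 0.0324).

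Among 24 receptors and surface regulators, F2r, the thrombin receptor PAR1, was higher in progeroid mice by 1.75 ± 0.14 on restriction (adjusted p = 5.78e-08) and by 0.81 ± 0.14 on the control diet (limma adjusted p = 0.000533), and fell by 1.30 ± 0.14 with restriction in wild type mice. Its diet effects differed between genotypes by 0.94 ± 0.20 (adjusted p = 0.0219). In all, 5 of these receptors were higher in progeroid mice on restriction and 3 on the control diet, with 0 lower on either, where 11.8% and 6.70% of all genes were higher. They included Vsig4, the C3b receptor of Kupffer cells (0.61 ± 0.13 and 0.59 ± 0.13), Itgb2, the β chain of the iC3b receptors of leukocytes (0.74 ± 0.14 and 0.45 ± 0.14), and C3ar1, the receptor of C3a (0.67 ± 0.13 on restriction). With restriction 0 rose and 2 fell in progeroid mice, while 1 rose and 4 fell in wild type mice, to be read against the shares of all genes given for the plasma proteins. Procr, the endothelial protein C receptor, fell in wild type mice (-0.75 ± 0.16), and Thbd, thrombomodulin, rose there (0.82 ± 0.25). In the vitamin K cycle, which carboxylates factors II, VII, IX and X and proteins C and S, Vkorc1l1 rose with restriction in progeroid (0.34 ± 0.10) and wild type mice (0.52 ± 0.10), as did the quinone reductase Nqo1.

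Acute phase proteins and liver transcription factors were set beside the members, some of which are themselves known to rise in inflammation. Of 20 acute phase genes 2 rose and 4 fell with restriction in progeroid mice, and 5 rose and 6 fell in wild type mice. Of all genes 6.94% and 5.07% did so in progeroid and 9.92% and 12.6% in wild type mice. Between genotypes 6 acute phase genes were higher and 0 lower in progeroid mice on the control diet, beside 6.70% and 4.32% of all genes. On restriction 4 were higher and 1 lower, beside 11.8% and 5.44% of all genes. Apcs, serum amyloid P, changed by 0.50 ± 0.14 in progeroid and 1.18 ± 0.14 in wild type mice. Saa1, another serum amyloid, fell by 1.44 ± 0.41 in progeroid and by 2.46 ± 0.41 in wild type mice, whereas Mt1, a metallothionein, rose by 2.34 ± 0.51 and 3.44 ± 0.51 in the same order. Lcn2, lipocalin 2, rose in wild type mice (2.06 ± 0.25). Of 11 genes of interleukin 6 and related signalling, Il1r1 changed in progeroid mice (0.80 ± 0.24) and Il1rn in wild type mice (-0.25 ± 0.09) on restriction, and Socs3, the feedback inhibitor, was higher in progeroid mice on restriction (1.37 ± 0.44; limma adjusted p = 0.0348). Of 14 transcription factors 2 rose and 1 fell with restriction in progeroid mice, and 3 rose and 3 fell in wild type mice, to be read against the same shares of all genes. Between genotypes 0 transcription factors were higher and 3 lower in progeroid mice on the control diet (all genes: 6.70% and 4.32%). On restriction 1 was higher and 2 lower (all genes: 11.8% and 5.44%). Hnf4a, a main regulator of hepatocyte genes, was lower in progeroid mice by 0.27 ± 0.07 on restriction and 0.37 ± 0.07 on the control diet. Esrra rose with restriction in progeroid (0.65 ± 0.08) and wild type mice (0.55 ± 0.08), and Foxa1 fell in both (-0.87 ± 0.22 and -0.78 ± 0.22).

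The members varied together among animals of a group. In restricted progeroid mice, animal 368 had the highest level of its group for 26 of the 34 members and the lowest for 0, whereas it was highest for 21.7% of all genes. Animal 362 was lowest for 18 members, among them C6, C8a, C8b, C9, C4bp, Cfi and F11, and for 26.1% of all genes. Among progeroid controls, animal 321 was lowest for 22 members and highest for 0, against 23.4% and 20.3% of all genes. Animal 325 was highest for 16 members and for 24% of all genes. In wild type controls animal 402 was highest for 18 members (20.9% of all genes) and animal 404 lowest for 20 (21.8% of all genes). In restricted wild type mice animal 422 was lowest for 16 members (27.2% of all genes) and animal 421 highest for 12 (24.4% of all genes). Of that group animal 425 was lowest for C6, C8a and C8b, and animal 424 for C9. This order was not particular to the members. The mean over the other plasma proteins of the cascades was lowest of its group in animals 321 (10.00), 362 (9.82), 404 (10.00) and 422 (9.77). It was highest in animals 325 (10.28), 402 (10.15) and 421 (9.97), but in animal 366 and not 368 among restricted progeroid mice. The hepatocyte marker mean was lowest in animals 404 and 422 of their groups, but not in 321 or 362. The difference between 3′ and 5′ Gapdh was 0.99 in animal 368 and 0.74 in animal 362. Their group spanned 0.58 to 1.12 with these animals included. It was 0.95 in animal 321, and progeroid controls spanned 0.64 to 1.38 with that animal included. The part of RNA integrity in the levels of these animals was not tested.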

How the data were processed

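Liver RNA of 20 mice was measured on 1 array each. Deposited values are log2 levels from RMA, as the submitters' processing notes name it; neither its version nor the array's probe set definition is given in the sources used here. RMA gives all arrays 1 distribution, so a shift of all genes together would be removed. Of 45141 probe sets, 28898 carried 1 symbol in the platform annotation and 28689 of these were found by Entrez ID in RefSeq's table of GRCm38.p6, with 0 symbols changed. Each gene took its probe set with the highest mean. A mean per group was fitted with limma 3.58.1 in R 4.3.3 (16 residual degrees of freedom), tests were two-sided, and p-values were adjusted by Benjamini-Hochberg over 17097 genes within each of 5 contrasts. The fit was checked on simulated data. The number of arrays limits the precision, and 0 array pairs were identical.

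The members and gene lists were chosen with earlier results of these data known. Per-animal values are given for the 4 members with the largest changes among those passing in each pairwise contrast and the 3 of the difference of diet effects. Other genes are named from up to 3 per list and contrast with the smallest adjusted p. Second probe sets are given for some members where sign or call differed, and not in every comparison. Alternatives changed the probe set rule, a filter on dim genes, centring, array weights, the variance prior, the groups fitted and the animals included. Cell marker means were compared by exact permutation tests of 5 against 5 animals, whose smallest possible p is 0.00794.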

Additional observations from a re-analysis of the deposited data

Results flagged for a closer look

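Among 136 groups of 5 member levels, 8 held an animal far from the other 4 by Dixon's test, and chance gives about 1 in 20. In restricted progeroid mice animal 369 was low for F2 (13.06, nearest value 13.19) and Pros1 (9.16, nearest 9.61). Animal 362 of that group was low for F13b (11.71, nearest 11.86) and Mbl2 (12.68, nearest 13.02). In restricted wild type mice animal 422 was low for Serpind1 (11.83, nearest 12.05). Among wild type controls animal 401 was low for F11 (9.86, nearest 10.12), animal 405 was low for C9 (13.14, nearest 13.34) and animal 402 was high for C8g (12.87, nearest 12.78).

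The effect of restriction differed between genotypes, by the interaction term of the limma fit, for 4 members. The difference, progeroid minus wild type, was 1.97 for C6 (adjusted p = 0.0135), 1.29 for C8a (adjusted p = 0.0339), 1.02 for C8b (adjusted p = 0.0496) and 1.09 for C9 (limma adjusted p = 0.00781). As given above, C8a and C8b missed the threshold in many of the fits that left out 1 animal, and both missed it with an intensity trend. C8b also missed it when each gene took the mean of all its probe sets.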

How the results depend on the processing

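No paired analysis was possible because the groups share no animal numbers. When 1 animal was left out, the count of members passing ranged from 10 to 11 for progeroid against wild type mice on restriction, from 4 to 6 on the control diet, from 7 to 11 for restriction in progeroid mice, from 14 to 16 in wild type mice, and from 2 to 4 for the difference of the diet effects. With only the compared groups in the fit, 7 members passed for restriction in progeroid mice, F11, Kng1, Cfi and Masp2 being lost; the cause was not tested. With an intensity trend and robust prior, 2 members passed for the difference of the diet effects, C8a (adjusted p = 0.0581) and C8b being lost. The difference of C8a ranged from 1.11 to 1.54 without 1 animal. Of 507 refits of 19 fold changes of the genes given by animal, which do not include the C8b difference, 493 kept their direction and side of the threshold, and 14, all for the C8a difference, kept only their direction. Probe sets without the suffixes _x_at, _s_at and _a_at left out C8b, C8g and Vtn. Median centring moved no array by more than 0.0229. Animals number 5 per group, so small changes may go undetected, and levels near the top of the scale may understate differences.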
